A study of Mus musculus with 15 samples.

Results

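A set of 9 transcription factor genes that mark the progenitors of the embryonic pancreas were described across mouse RNA sequencing libraries. They were Sox9, Nkx6-2, Onecut1, Prox1, Pdx1, Foxa2, Gata4, Gata6 and Mnx1. Each was found by its symbol as 1 row of the deposited table of reads per gene, so that 9 of 25292 genes were members and all 9 passed the filter on low counts. By textbook role they were split into 4 factors of the trunk epithelium (Sox9, Nkx6-2, Onecut1, Prox1) and 5 factors that the early multipotent bud or its endoderm already holds (Pdx1, Foxa2, Gata4, Gata6, Mnx1). The study asked how signalling through S1pr2, a receptor for the lipid sphingosine-1-phosphate, acts on the choice of pancreatic lineages. It held 15 libraries in 5 groups of 3, all from C57/Bl6J mice. Pancreata of 14.5 dpc (days post coitum) were taken directly, either wild type (wt) or labelled S1pr2 null, an allele with a Neo cassette inserted into exon 1. Explants of 14.5 dpc, for which the labels give no mutant allele and which the methods describe as dorsal buds, were kept for 2 days in serum-free air-liquid interface (ALI) culture. They were kept under standard conditions, with the solvent where the methods call for it (control), or with 15 μM JTE013, an antagonist of S1pr2 (JTE), or 15 μM JTE013 with 50 ng/ml CTGF, a secreted matrix-associated protein (JTE + CTGF). Each library pooled up to 3 pancreata or explants, and no batch or date is given by the labels. A wt group of the cultured age was not among the groups, so that culture, the 2 added days and the choice of the dorsal bud cannot be told apart between control and wt. JTE + CTGF has no group with CTGF alone beside it.

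The early pancreatic bud is a layer of endodermal cells that hold Pdx1 and Foxa2 and can form every epithelial cell of the gland. During secondary transition these cells sort into tips, which form acinar cells, and a trunk, which forms duct and endocrine cells. Trunk cells keep Sox9 and the Nkx6 factors and pass through a Neurog3 state when they become endocrine, and several of the same factors come back in mature cells: Pdx1 and Mnx1 in beta cells, Sox9, Onecut1 and Prox1 in ducts, Gata4 in acini.

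Promoter windows, from 250 bases before to 50 bases after the RefSeq start in GRCm38.p6, the build called mm10, were found for 6 of the 9 members. Shown here are those of Nkx6-2 (chr7:139582748-139583047, minus strand), Pdx1 (chr5:147269847-147270146, plus strand) and Mnx1 (chr5:29478421-29478720, minus strand), because these genes were lower together in explants with JTE013. The capitals mark matches, on either strand, to the motifs named after the sequences.
Nkx6-2: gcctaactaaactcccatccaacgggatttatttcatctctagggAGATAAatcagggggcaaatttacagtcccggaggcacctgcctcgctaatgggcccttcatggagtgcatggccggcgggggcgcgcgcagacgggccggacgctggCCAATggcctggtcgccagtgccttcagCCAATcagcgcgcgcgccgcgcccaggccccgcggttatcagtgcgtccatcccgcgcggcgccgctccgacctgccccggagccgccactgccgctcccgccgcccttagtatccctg
Pdx1: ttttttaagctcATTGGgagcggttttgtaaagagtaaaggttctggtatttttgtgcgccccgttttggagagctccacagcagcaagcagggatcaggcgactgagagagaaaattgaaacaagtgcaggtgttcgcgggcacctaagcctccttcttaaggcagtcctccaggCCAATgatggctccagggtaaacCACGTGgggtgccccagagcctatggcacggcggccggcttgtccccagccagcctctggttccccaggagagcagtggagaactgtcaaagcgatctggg
Mnx1: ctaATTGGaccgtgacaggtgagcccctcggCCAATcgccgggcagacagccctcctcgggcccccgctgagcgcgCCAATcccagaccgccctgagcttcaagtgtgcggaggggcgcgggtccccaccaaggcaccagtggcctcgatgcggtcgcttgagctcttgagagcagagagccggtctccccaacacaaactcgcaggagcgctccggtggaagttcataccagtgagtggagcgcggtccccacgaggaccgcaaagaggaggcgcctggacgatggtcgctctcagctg
All 3 windows held CCAAT, or its reverse ATTGG, with 2 matches in Nkx6-2, 2 in Pdx1 and 3 in Mnx1. A window of Prox1 and a window of Foxa2, genes not called in JTE against control, also held 1 match each. This motif was present in 37.4% of the 32851 promoters of the same length. Nkx6-2 also held 1 AGATAA (11.2% of all promoters) and Pdx1 held 1 CACGTG (7.15%). Among the shown windows no TATAAA (13.6% of all promoters), TAATTA (5.29%), GGAATG (14.7%), TGTTTAC (3.65%) or ATCAAT (7.54%) was found. The windows were rich in G and C, with 66.7% in Nkx6-2, 66.3% in Mnx1 and 55.3% in Pdx1, against a median of 52.7%. The window of Onecut1, which was not called in JTE against control, had 73.0%. These matches are letters in a window and were not tested as binding sites.

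The genes lie apart from each other in mm10. Only Mnx1 and Pdx1 share a chromosome, and they lie far from each other on it. The exons counted for the trunk factors span chr11:112782224-112787760 (plus strand) for Sox9, chr7:139579377-139582797 (minus) for Nkx6-2, chr9:74861921-74891475 (plus) for Onecut1 and chr1:190118038-190170680 (minus) for Prox1. Those of the multipotent factors span chr5:147269959-147278008 (plus) for Pdx1, chr2:148042877-148046969 (minus) for Foxa2, chr14:63198922-63271692 (minus) for Gata4, chr18:11052510-11085635 (plus) for Gata6 and chr5:29473038-29478519 (minus) for Mnx1. The number of exon blocks ran from 2 in Pdx1 to 10 in Gata4.

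Total counts ran from 11402804 to 13828737 reads per library. Replicates varied beyond counting noise (chi-square per gene of 2.26 or more), and JTE 3 stood apart most, at 16.2 and 21.8 from the other JTE libraries. JTE 3 was the lowest of the JTE libraries in 8 of the 9 members, all but Gata6, and in the summed level of the epithelial markers. The paper describes the 3 samples of a condition as independent and as biological replicates. The labels do not say whether the pools of a group came from separate litters, so p-values measure the spread between these libraries. S1pr2 itself was read more often in the libraries labelled S1pr2 null (1358 ± 97.6 normalised counts, SD, n = 3) than in wt (766 ± 5.87). This count does not by itself contradict the label, since reads counted over a whole gene do not show whether the transcript is intact. The paper reports a western blot of wt and S1pr2 null pancreata of the same stage, with no S1pr2 protein in the null. For the libraries themselves the genotype is taken from the label. The pancreas label was borne out by Ptf1a, a defining factor of the organ, whose normalised count was at least 330 in every library.

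Compared per length of exon, the 9 factors spanned a wide range. Levels between genes are given as library-scaled reads per kilobase of exon (RPKM), and levels between groups as normalised read counts, which are reads divided by the relative effective library size. Sox9, the factor that maintains the progenitor pool, was the highest member in wt (47.5 ± 3.79 RPKM, SD, n = 3), with the null label (54.4 ± 1.51) and in control (45.4 ± 1.80). In JTE and JTE + CTGF the highest member was Foxa2, a pioneer factor of endoderm, with 34.4 ± 5.07 and 38.4 ± 2.72 RPKM, while Sox9 was at 28.02 ± 4.46 and 24.0 ± 2.25. Gata6, Gata4, Pdx1 and Prox1 lay between 7.41 and 31.9 RPKM in every group mean. The lowest means belonged to Nkx6-2 in all groups but control, where it reached 17.4 ± 1.22 RPKM and passed Prox1, Onecut1 and Mnx1. The paralog of Nkx6-2, Nkx6-1, was far more abundant per length. The ratio of Nkx6-2 to Nkx6-1 was 0.0388, 0.0394 and 0.0430 in wt and 0.355, 0.355 and 0.339 in control, and 0.0117, 0.0111 and 0.0034 in JTE. In that ratio the 3 groups did not overlap.

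**Figure D1:**
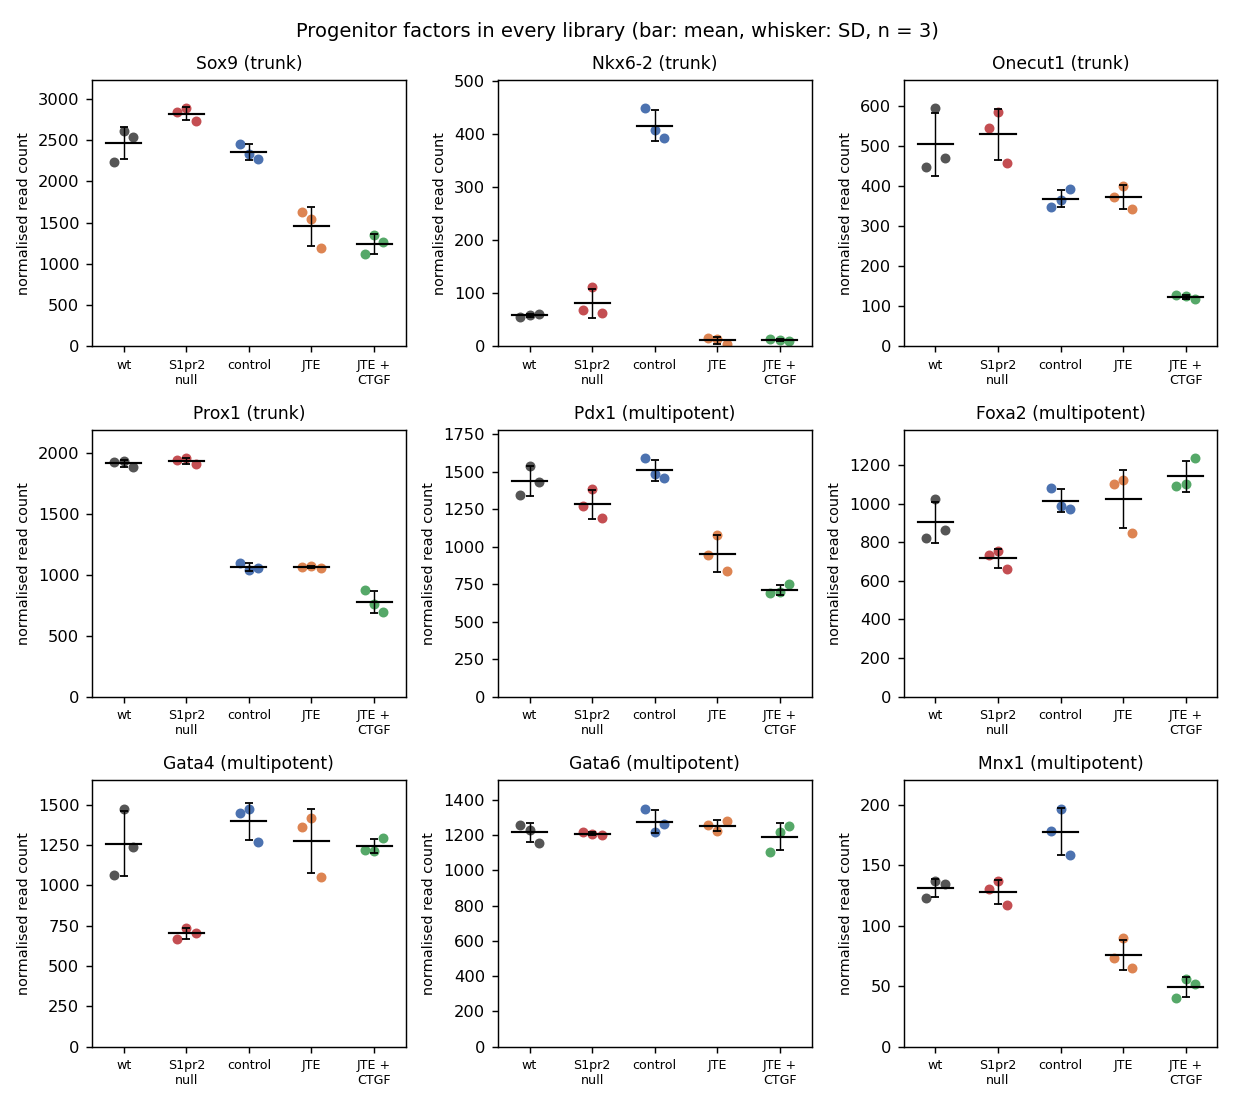
Normalised read count (linear axis from 0) of each member in the 15 libraries, with points for libraries, a bar for the mean and whiskers for the SD (n = 3). Gata4 is low in the 3 libraries labelled S1pr2 null alone, Nkx6-2 is high in the 3 control libraries alone, and Onecut1 is low in the 3 JTE + CTGF libraries alone, between 117 and 128.

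The first comparison asked whether the factors differ between genotypes at 14.5 dpc. Of the 9 members 2 were lower in the libraries labelled S1pr2 null and 7 did not pass the test, a share of 22.2% beside 25.8% of all 16245 genes tested (12.6% higher and 13.3% lower), so that the count was near the background. Both belonged to the multipotent group, with 2 of 5 lower, while 0 of the 4 trunk factors passed. The trunk factors had a median log2 fold change of 0.13 and the multipotent ones of −0.17, beside −0.01 over all genes.

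Gata4, a zinc finger factor of the early bud that later persists in acinar cells, was read at 1066, 1473 and 1239 normalised counts in wt and at 666, 737 and 707 in the libraries labelled S1pr2 null. The groups did not overlap, and the highest library of that label lay well under the lowest of wt. It was 1.79-fold lower, −0.84 ± 0.11 (SE) as a log2 fold change (edgeR adjusted p = 4.48e-05). Its paralog Gata6, which shares much of its function in the bud, was read at 1258, 1231 and 1155 in wt and at 1217, 1206 and 1203 in the libraries with the null label. These ranges overlapped, and the 95% interval of the log2 fold change (−0.01) was −0.12 to 0.11. As a ratio per length, Gata4 to Gata6 was 0.693, 0.979 and 0.877 in wt and 0.448, 0.4999 and 0.481 in the other group, again without overlap. In the 3 groups of explants the ratio lay between 0.672 and 0.990.

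Foxa2, which opens chromatin in endoderm, was read at 822, 1024 and 864 normalised counts in wt and at 734, 757 and 660 in the libraries labelled S1pr2 null. The groups did not overlap, but the gap was narrow. The difference was −0.33 ± 0.10 (SE) on the log2 scale (edgeR adjusted p = 0.021). It did not pass without wt 2 (−0.24, adjusted p = 0.135) or without S1pr2 null 3 (−0.28, adjusted p = 0.10).

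Among the trunk factors Sox9 came nearest to a call. Its normalised counts were 2239, 2612 and 2534 in wt and 2844, 2885 and 2733 in the libraries with the null label, so that all of the latter were higher. The log2 fold change of 0.20 ± 0.09 (SE) had an edgeR adjusted p of 0.126 and a 95% interval of 0.005 to 0.388. With only the 6 libraries compared it was 0.20 with an adjusted p of 0.0084, and without JTE 3, which belongs to neither group, it was 0.19 with 0.0353. Nkx6-2, a homeodomain repressor of the trunk, was read at 54.9, 59.4 and 61.0 in wt and at 67.7, 113 and 62.3 in the other group. The library S1pr2 null 2 stood well above the rest, and the log2 fold change of 0.47 ± 0.23 (SE) had an adjusted p of 0.144. For Onecut1 (0.07, 95% interval −0.15 to 0.28), Prox1 (0.02, −0.11 to 0.14), Pdx1 (−0.17, −0.33 to 0.002) and Mnx1 (−0.04, −0.32 to 0.24) the ranges of the groups overlapped and no call was made.

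Markers of other cells moved between the same libraries. All 15 epithelial markers were lower in the libraries labelled S1pr2 null, with a summed level of 1797 to 1896 CPM (reads scaled to the library total) beside 2494 to 2762 in wt, and 8 of 10 acinar markers were lower, with 2660 to 2883 beside 8390 to 14520 CPM. The beta cell list, with 7 of 8 lower, fell from 296 to 519 CPM to 35.2 to 46.2. Of 14 mesenchymal markers 8 were higher, among them Nkx3-2 (1.16 ± 0.15 SE) and Tcf21 (0.91 ± 0.13 SE), and 4 were lower, led by Dcn, Lum and Col1a1, with a summed level of 9095 to 10700 CPM beside 11270 to 11420 in wt. Their part in the results was not tested, and in bulk libraries fewer cells of a type and less RNA per cell cannot be told apart. When the libraries were scaled by the epithelial list instead, which moved the median log2 fold change of all genes to 0.45, 7 members were higher and 1, Gata4 (−0.37), was lower. That scaling called 11129 of all 16245 genes, beside 4199 without it. In that scaling Sox9 was higher by 0.66, Nkx6-2 by 0.92 and Foxa2 had a log2 fold change of 0.13 without a call (adjusted p = 0.176).

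The comparison of control explants with wt pancreata set the starting point of the culture. Of the 9 members 2 were higher and 2 lower, a share of 44.4% beside 57.8% of all genes (28.5% higher and 29.3% lower). The trunk factors diverged, with 1 higher and 2 lower of 4, while of the multipotent factors 1 of 5 was higher and 4 were not called. Nkx6-2 was read at 448, 407 and 392 normalised counts in control, against 54.9 to 61.0 in wt. It was 7.1-fold higher, or 2.83 ± 0.20 (SE) in log2 (edgeR adjusted p = 4.38e-09), and this was the largest change of any member between these groups. Mnx1, a homeodomain factor of the early dorsal bud and of beta cells, rose from 123, 137 and 134 in wt to 178, 197 and 158, a log2 fold change of 0.44 ± 0.13 (SE, adjusted p = 0.0084). Scaled by the epithelial list, the Mnx1 change turned to −0.12 and was not called (adjusted p = 0.399). Beta cell markers were higher in 7 of 8 cases, with 296 to 519 CPM in wt and 4113 to 4643 in control, and acinar markers in 8 of 10, with 8390 to 14520 and 59400 to 82440 CPM, and their part in the members' values was not tested.

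Onecut1 and Prox1 were lower in the explants. Onecut1, a cut-homeodomain factor upstream of Neurog3, was read at 447, 594 and 470 in wt and at 348, 366 and 392 in control, a difference of −0.45 ± 0.11 (SE) in log2 (edgeR adjusted p = 0.00154). Prox1, a homeodomain factor of pancreatic progenitors and also the defining factor of lymphatic endothelium, went from 1928, 1929 and 1882 to 1100, 1039 and 1056. Its log2 fold change of −0.85 ± 0.06 (SE, adjusted p = 3.63e-09) was precise, since the libraries of a group differed little. All 5 lymphatic markers were lower as well, with a summed level of 94.7 to 110 CPM in wt and 45.95 to 48.3 in control, and the part of these cells in the Prox1 result was not tested. Sox9, Pdx1, Foxa2, Gata4 and Gata6 had log2 fold changes from −0.06 to 0.17 without a call. Without wt 2, Gata4 (0.28, adjusted p = 0.0376) and Foxa2 (0.27, adjusted p = 0.0381) passed as higher, and without JTE 3 Foxa2 passed too (0.19, adjusted p = 0.0471). Epithelial markers were higher in control (10 of 15, 3589 to 4188 CPM), and scaled by that list 7 members were lower and 1, Nkx6-2 (2.27), was higher. That scaling called 12564 of all 16245 genes, beside 9389 without it.

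The next comparison asked how explants respond to the antagonist. Of the 9 members 4 were lower in JTE and none was higher, a share of 44.4% beside 52.2% of all genes (25.9% higher and 26.2% lower). The 4 were the trunk factors Sox9 and Nkx6-2 and the multipotent factors Pdx1 and Mnx1, so that the split by role did not separate them. DESeq2 called 4 members as well, and 4 were lower in each of the 15 fits that left out 1 library. Onecut1, Prox1, Foxa2, Gata4 and Gata6 had log2 fold changes between −0.13 and 0.01. By the criterion of the study, which also asks for a fold change under 0.6 or over 1.6 and is met by 8.25% of all genes, Nkx6-2 and Mnx1 passed.

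Nkx6-2 showed the widest difference. It was read at 448, 407 and 392 normalised counts in control and at 15.9, 14.3 and 3.72 in JTE. The JTE values stood for 15, 14 and 4 reads, with a counting error near 30.2% of the mean, so that the size of the fall is less certain than the fall. The log2 fold change was −5.22 ± 0.27 (SE), a 37.2-fold lower level (edgeR adjusted p = 1.63e-10), and without JTE 3 it was −4.77. The level in JTE also lay under that of wt, where 61 to 65 reads were found per library. Nkx6-1, by contrast, was read at 2097 ± 114 in control and 2204 ± 235 in JTE (SD, n = 3), with a log2 fold change of 0.07 and a 95% interval of −0.07 to 0.22.

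Sox9 and Pdx1 fell by similar amounts. Sox9 was read at 2457, 2329 and 2274 normalised counts in control and at 1629, 1540 and 1191 in JTE, without overlap, a change of −0.70 ± 0.09 (SE) in log2 (edgeR adjusted p = 9.64e-06). Pdx1, the homeodomain factor that the whole gland depends on, was read at 1589, 1485 and 1458 in control and at 943, 1081 and 836 in JTE, for −0.67 ± 0.08 (SE, adjusted p = 3.61e-06). The ratio of Pdx1 to Sox9 per length was 0.620, 0.610 and 0.614 in control and 0.554, 0.673 and 0.672 in JTE, with ranges that overlapped. Mnx1 was read at 178, 197 and 158 in control and at 73.0, 89.9 and 65.1 in JTE, a log2 fold change of −1.23 ± 0.14 (SE, adjusted p = 1.66e-06). Without JTE 3 the changes were −0.57 for Sox9, −0.58 for Pdx1 and −1.13 for Mnx1, and all were still called.

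The other members did not move detectably. Prox1 was read at 1100, 1039 and 1056 in control and at 1065, 1072 and 1055 in JTE, and its 95% interval of −0.13 to 0.13 was the tightest with that of Gata6 (−0.14 to 0.09). The intervals were −0.22 to 0.24 for Onecut1, −0.20 to 0.22 for Foxa2 and −0.36 to 0.10 for Gata4. Against the fall of Sox9, 7 of 15 epithelial markers were lower and 1 was higher, with a summed level of 2582 to 3263 CPM beside 3589 to 4188 in control. Scaled by that list, which moved the median of all genes to 0.31, the same 4 members were still lower, with log2 fold changes of −0.41 for Sox9, −0.37 for Pdx1, −0.93 for Mnx1 and −4.92 for Nkx6-2, and the counts became 4 lower and 4 higher. That scaling called 9483 of all 16245 genes, beside 8474 without it. Markers of beta cells, which hold Pdx1 and Mnx1, were lower in 7 of 8 cases and higher in 1, Ucn3. Their summed level was 4113 to 4643 CPM in control and 664.5 to 824 in JTE. Duct markers were lower in 4 of 8 and higher in 1, Slc4a4, with 1999 to 2254 and 992 to 1086 CPM. Of 10 acinar markers 2 were lower and 8 were not called, with 59400 to 82440 CPM in control and 54110 to 102900 in JTE. The part of these cells in the result was not tested. The share of mitochondrial reads was 1.03 to 1.175% in control, 1.324 to 1.498% in JTE and 1.298 to 1.331% in JTE + CTGF, so that control did not overlap with the treated groups, and its part was not tested either.

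**Figure D2:**
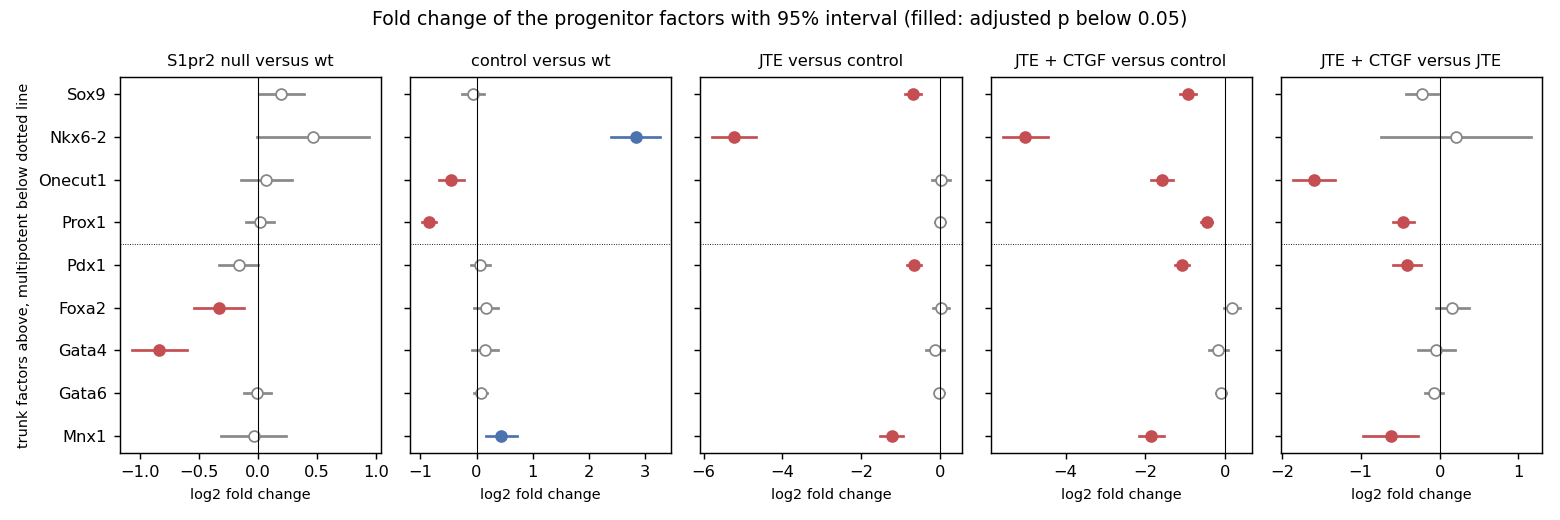
Log2 fold change of each member with its 95% interval in 5 comparisons, filled where the adjusted p was below 0.05, red for lower and blue for higher, trunk factors above the dotted line. The axes differ in scale. In the panels 2 members are filled in the first panel, 4 in the second, 4 in the third, 6 in the fourth and 4 in the last.

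The addition of CTGF to the antagonist was examined against control and against JTE alone. These comparisons share libraries with each other and with the one before, and their values are given side by side. Against control, 6 of 9 members were lower and none was higher, a share of 66.7% beside 61.1% of all genes (28.1% higher and 33.0% lower). All 4 trunk factors were lower, with a median log2 fold change of −1.249, and 2 of 5 multipotent ones, with a median of −0.17, beside −0.03 over all genes. Against JTE, 4 of 9 were lower, Onecut1, Prox1, Pdx1 and Mnx1, a share of 44.4% beside 30.4% of all genes (13.6% higher and 16.8% lower). No member was called higher with CTGF. By the criterion of the study 5 members passed against control (11.8% of all genes) and 1, Onecut1, against JTE (1.74%), while 1, Gata4, passed between genotypes (3.0%) and 2, Nkx6-2 and Prox1, between control and wt (12.1%).

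Onecut1 gave the clearest step between the treated groups. It was read at 348, 366 and 392 normalised counts in control, at 373, 401 and 343 in JTE and at 128, 125 and 117 in JTE + CTGF. Control and JTE overlapped, and JTE + CTGF lay far under both. In log2 the change was −1.59 ± 0.13 (SE; edgeR adjusted p = 3.24e-07) against JTE and −1.58 ± 0.13 (SE, adjusted p = 2.37e-08) against control, a 3.0-fold lower level in each case. Reads of Gm20649, a lincRNA that shares 2170 exonic bases and the strand with Onecut1 and has no row of its own, would be counted with it. The other Onecut genes differed from each other. Onecut2 was read at 53.9 ± 3.51 in control, 63.6 ± 12.6 in JTE and 46.2 ± 8.67 in JTE + CTGF (SD, n = 3), and it was not called between these groups. Onecut3, at 6.198 ± 0.866, 12.1 ± 2.55 and 3.88 ± 1.86 in the same order, rested on few reads. It rose from control to JTE (0.939 ± 0.313 SE, adjusted p = 0.0382) and fell from JTE to JTE + CTGF (−1.608 ± 0.356 SE, adjusted p = 0.00382).

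Prox1 followed the same order with a smaller step. It was read at 871, 756 and 695 in JTE + CTGF, under all 6 libraries of control and JTE, with a log2 fold change of −0.46 ± 0.06 (SE) against JTE (edgeR adjusted p = 4.33e-05) and −0.46 ± 0.06 against control (adjusted p = 7.89e-06). Lymphatic markers had a summed level of 30.3 to 38.9 CPM in JTE and 23.9 to 32.5 in JTE + CTGF, and 1 of the 5, Reln, was lower (−0.84 ± 0.26 SE, adjusted p = 0.0234). Scaled by the epithelial list, the Prox1 change against control was −0.23 and no longer called (adjusted p = 0.0795).

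Pdx1 and Mnx1 were lower again than in JTE. Pdx1 was read at 694, 695 and 751 in JTE + CTGF, which was −0.42 ± 0.09 (SE; edgeR adjusted p = 0.0014) in log2 against JTE and −1.08 ± 0.08 (SE, adjusted p = 1.39e-08) against control. Mnx1 was read at 40.0, 56.1 and 52.1, with −0.62 ± 0.17 (SE, adjusted p = 0.00941) against JTE and −1.85 ± 0.15 (SE, adjusted p = 2.77e-08) against control. For Mnx1 the difference from JTE did not pass without JTE 2 (−0.48, adjusted p = 0.0526) or with only the 6 libraries compared (−0.61, adjusted p = 0.0512). Sox9, at 1117, 1348 and 1263, overlapped with JTE, for a log2 fold change of −0.22 (adjusted p = 0.0867) that passed without JTE 3 (−0.31, adjusted p = 0.00542). Nkx6-2 stayed at the low level of JTE, with 14.9, 12.6 and 10.7 normalised counts from 9 to 13 reads and a 95% interval of −0.75 to 1.15 against JTE.

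Foxa2, Gata4 and Gata6 were not called in either comparison. Foxa2, at 1091, 1100 and 1235, lay above all 3 control libraries, but the log2 fold change of 0.17 had an edgeR adjusted p of 0.146. It passed without JTE 3 (0.21, adjusted p = 0.0282), with only the 6 libraries compared (0.19, adjusted p = 0.0325), with no low-count filter (0.21, adjusted p = 0.0329) and scaled by the epithelial list (0.39, adjusted p = 0.00054). Gata6 was not called in any of the 6 contrasts, and its group means ran only from 1192 to 1277. Scaled by the epithelial list it was called in 3 of them, as higher in the libraries labelled S1pr2 null (0.45) and in JTE (0.28), and as lower in control against wt (−0.49), so its steadiness holds relative to all genes and not relative to that list.

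The response to the antagonist and the difference between genotypes were then compared in 1 contrast, the fold change with the antagonist less that between genotypes. It differed from 0 in 5 of 9 members, a share of 55.6% beside 42.9% of all genes (21.5% in each direction). The difference was −5.68 ± 0.36 (SE, edgeR adjusted p = 6.87e-09) on the log2 scale for Nkx6-2, −1.19 ± 0.19 (adjusted p = 0.000114) for Mnx1, −0.89 ± 0.13 (adjusted p = 4.12e-05) for Sox9 and −0.50 ± 0.11 (adjusted p = 0.00199) for Pdx1. For Gata4 it was 0.71 ± 0.16 (adjusted p = 0.00152). Gata4 was thus lower with the genotype label and not detectably with the antagonist, and the other 4 the reverse. For Foxa2 the difference of 0.35 missed the threshold (adjusted p = 0.0577) and passed without JTE 3 (0.47, adjusted p = 0.00356). Since the antagonist was given to cultured dorsal buds and the genotypes were compared in uncultured pancreata, the kind of block and the state of the tissue cannot be told apart in this contrast.

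**Figure D3:**
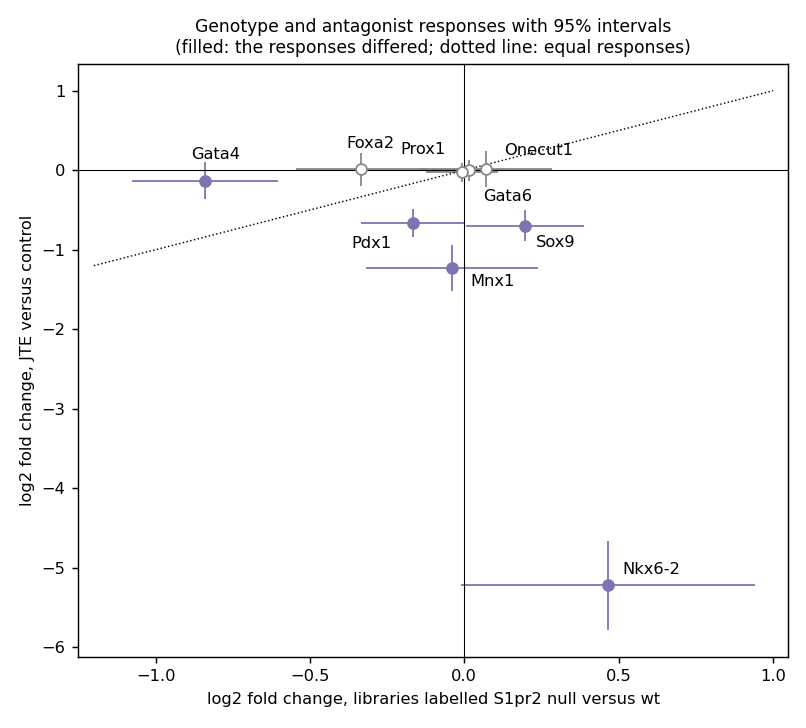
Log2 fold change in the libraries labelled S1pr2 null versus wt (horizontal) and in JTE versus control (vertical) for the 9 members, with 95% intervals. Points are filled where the responses differed (adjusted p below 0.05), the dotted line marks equal responses and the axes differ in scale. Nkx6-2, Mnx1, Sox9 and Pdx1 lie below the line and Gata4 above it.

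The rows of the count table next to the members were described as well, because non-coding transcripts start at several of these loci. BC006965, a non-coding transcript on the minus strand at chr11:112663927-112781976, starts 248 bases from Sox9 and points away from it. Its mean normalised counts were 454 ± 13.5 in wt, 348 ± 42.1 in the libraries labelled S1pr2 null, 178 ± 14.3 in control, 46.6 ± 13.8 in JTE and 35.1 ± 12.2 in JTE + CTGF (SD, n = 3). It was lower in JTE than in control (log2 fold change −1.95 ± 0.19 SE, edgeR adjusted p = 2.35e-07), where Sox9 had −0.70. It was also lower in control than in wt (−1.35 ± 0.14 SE, adjusted p = 4.09e-07), where Sox9 was not called.

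Plut (chr5:147228596-147271521, minus strand) is annotated as antisense to Pdx1, with no exon in common. Its mean normalised count was 58.9 ± 7.91 in wt, 28.3 ± 3.49 in the libraries with the null label, 143 (134 to 154) in control, 42.2 ± 4.22 in JTE and 46.8 ± 11.1 in JTE + CTGF (SD, n = 3). The fall with JTE (−1.76 ± 0.16 SE, edgeR adjusted p = 1.77e-07) went with that of Pdx1. Plut was also lower in the libraries labelled S1pr2 null (−1.05 ± 0.18 SE, adjusted p = 0.000515) and higher in control than in wt (1.28 ± 0.15 SE, adjusted p = 2.2e-06), in both of which Pdx1 was not called.

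Gm16551, on the strand of Onecut1 and ending 1787 bases before it, behaved otherwise than its neighbour. It fell from 658 ± 33.7 in control to 286 ± 14.2 in JTE (−1.202 ± 0.07 SE, edgeR adjusted p = 1.51e-09), where Onecut1 had 0.01. In JTE + CTGF it was 342 ± 12.8, above JTE by 0.26 ± 0.08 (SE, adjusted p = 0.0215), where Onecut1 was lower by a factor of 3.0. Inpp5a, which overlaps 245 exonic bases of Nkx6-2 on the other strand, was higher in JTE (0.22 ± 0.07 SE, adjusted p = 0.011), opposite to Nkx6-2. Whether the counting used the strand is not stated, so reads in such overlaps cannot be assigned. Prox1os, antisense to Prox1 with 133 bases in common, was rare (8.25 to 18.8 normalised counts as group means) and was not called in any contrast. 9030622O22Rik, 2674 bases from Foxa2, was lower in JTE + CTGF than in JTE (−0.53 ± 0.17 SE, adjusted p = 0.0236), and Gm11681 and Gm27450 held under 3 normalised counts in every library.

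**Figure D4:**
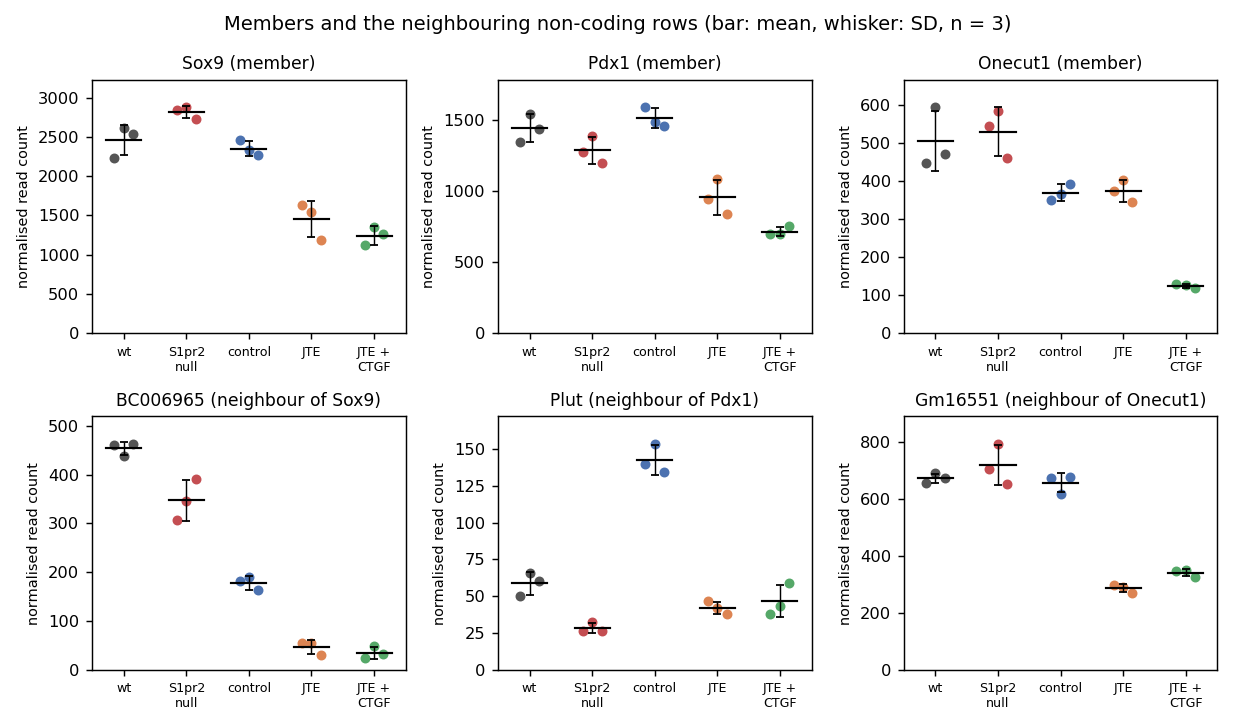
Normalised read count (linear axes from 0) of Sox9, Pdx1 and Onecut1 in the upper row and of BC006965, Plut and Gm16551, the non-coding rows beside them, in the lower row, with points for libraries, a bar for the mean and whiskers for the SD (n = 3). Gm16551 is low in JTE, where Onecut1 is at the level of control, and Plut is high in control.

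A list of 21 other factors of the progenitor network was set beside the members. In the libraries labelled S1pr2 null 6 were higher and 6 lower, where 25.8% of all genes were called. Sox11 (1.119 ± 0.19 SE) and Onecut3 (1.03 ± 0.17 SE) led the rises, and Rbpj (−0.93 ± 0.10 SE) and Ptf1a (−0.89 ± 0.20 SE) the falls. Ptf1a, which drives the acinar fate and forms a complex with Rbpj, and Gata4 were therefore both lower there. In JTE 6 were higher and 6 lower than in control, where 52.2% of all genes were called. Hnf4a, a nuclear receptor of endoderm, was lower (−1.04 ± 0.13 SE), as were Sox4 (−0.89 ± 0.06) and Tead2, a DNA-binding partner of YAP (−0.625 ± 0.05), while Sox11 (1.41 ± 0.215) and Ptf1a (0.83 ± 0.18) were higher, all with edgeR adjusted p of at most 0.000791, as was Onecut3 (adjusted p = 0.0382). In JTE + CTGF 9 of the 21 were lower and 2 higher than in JTE, where 30.4% of all genes were called. Their median was −0.28 beside 0.00 over all genes. Tead1 was lower (−1.31 ± 0.10 SE, edgeR adjusted p = 1.05e-07), and Hes1, a Notch target that holds progenitors back from the endocrine fate, was higher by 0.44 ± 0.06 (adjusted p = 5.13e-05). Against control, Hes1 was lower in JTE (−0.327 ± 0.061 SE, edgeR adjusted p = 0.000275). In JTE + CTGF against control it was not called (0.115 ± 0.061 SE, adjusted p = 0.111).

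Neurog3, the factor of endocrine progenitors that arise from the trunk, went from 2387 ± 122 normalised counts in wt to 439 ± 71.7 in control (SD, n = 3; −2.44 ± 0.19 SE, edgeR adjusted p = 9.94e-09). Of the 13 further progenitor symbols that the study listed, 1 was higher and 5 lower in the libraries labelled S1pr2 null, and 3 were higher and 5 lower in JTE. The study cites an earlier publication for its markers and showed that list for these same samples. The counts are therefore not independent evidence of a direction.

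Factors of the branches that leave the progenitor state were counted as well. Of 13 endocrine branch factors 10 were lower and none higher in the libraries labelled S1pr2 null, with a median of −0.64, and 8 were lower and none higher in JTE, with a median of −0.40. Mafa and Pax6 led the first (−2.73 and −0.97) and Pax4 and Mafa the second (−1.499 and −1.248). Of 6 acinar branch factors, Gata4 among them, all 6 were lower in the libraries labelled S1pr2 null, led by Bhlha15 (−1.86 ± 0.21 SE) and Rbpjl (−1.48 ± 0.27 SE), whereas in JTE 1 was higher, Ptf1a, and 1 lower, Xbp1 (−0.36 ± 0.10 SE). The difference between the responses was above 0 in 5 of these 6, with a median of 1.22 beside 0.00 over all genes.

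**Figure D5:**
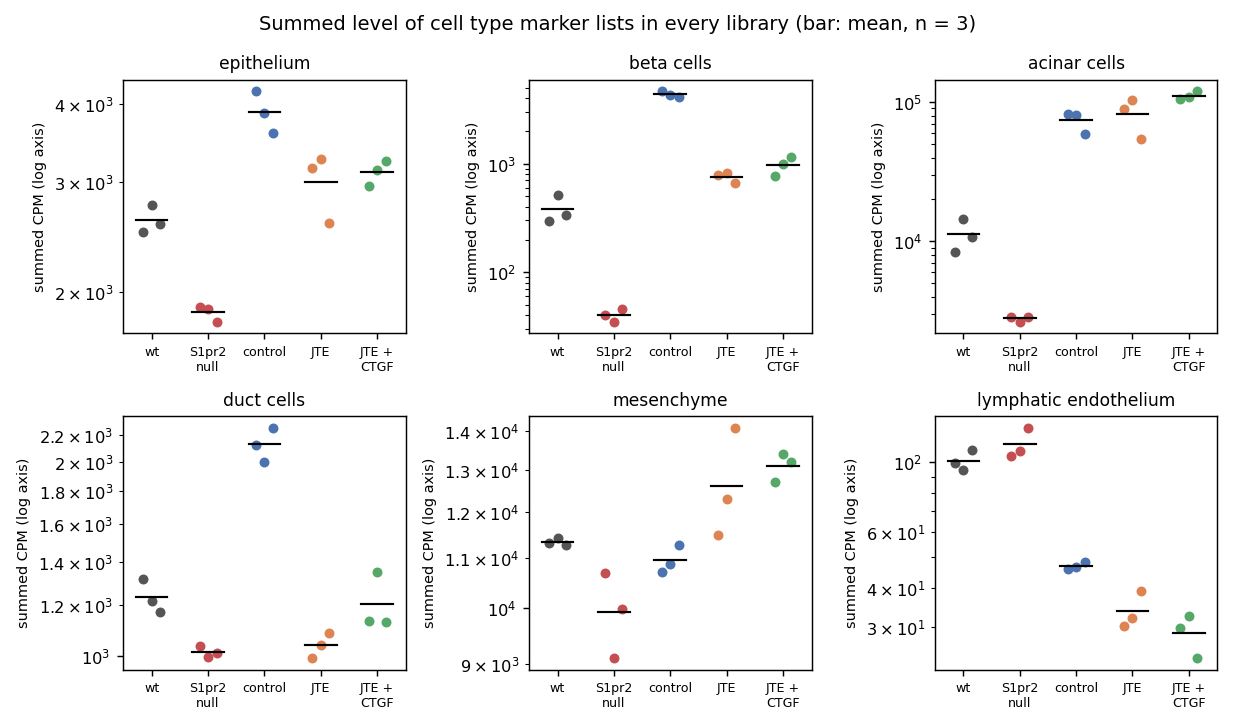
Summed level in CPM (log axis) of 6 marker lists in each library, with a bar for the mean (n = 3). The epithelial list is lowest in the libraries labelled S1pr2 null (1797 to 1896 CPM) and highest in control (3589 to 4188 CPM), and JTE 3 (2582 CPM) lies under the other JTE libraries.

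Other tissues were at low or uneven levels. Erythroid markers summed to 817 to 1130 CPM in the libraries labelled S1pr2 null and 313 to 507 in wt, and spleen markers to 26.6 to 51.0 and 13.9 to 17.6. Leukocyte markers, all 5 lower in JTE, summed to 142 to 173 CPM in control and 64.4 to 77.4 in JTE. Vascular markers were lower in 5 of 6 cases in JTE and liver markers in 4 of 5. Alpha cell markers were lower in 3 of 6 cases and higher in 1, and of 14 mesenchymal markers 3 were higher and 4 lower. Neural crest and glial markers held 1 higher and 1 lower of 6. Of 6 gut and stomach markers only 2 were common enough to test, and Tff1 was at 0 in all libraries labelled S1pr2 null and Muc6 in all of JTE + CTGF. No member is among the genes of the lists just given. Whether these tissues express members, and what part they have in the members' values, was not tested.

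Over the 15 libraries the members formed groups by their pattern, described here by Pearson's r of log2 CPM. Such a value mainly follows the 5 group means, since the 3 libraries of a group are alike. Pdx1 and Mnx1 were most alike (r = 0.97), each being among the 3 nearest of 13757 other protein-coding genes for the other, and Sox9 was near to Pdx1 (0.90) and Mnx1 (0.89). Foxa2 and Gata4 formed another pair (0.86), and Foxa2 ran opposite to Prox1 (−0.79). Gata6, which varied least, had no other gene above 0.82, the value of Kcng1.

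The nearest genes of the other members were Wdr6, Mad1l1 and Thsd1 for Sox9 (r = 0.98, 0.98 and 0.97), Mxd4, Akr1cl and Pglyrp1 for Nkx6-2 (0.98, 0.97 and 0.97), and Kntc1 and Rbl1 for Prox1 (0.99 each). For Onecut1 they were Hnrnpul2, Fbl and Srcap (0.98, 0.98 and 0.97), for Foxa2 Stard10, Ehhadh and Hip1r (0.97, 0.96 and 0.96), and for Gata4 Lzts3, 2010300C02Rik and Ggt1 (0.99, 0.96 and 0.96). Gm572 and Tspear (0.97 each) followed Mnx1 for Pdx1, and Tspear and Ehd4 (0.98 each) came before Pdx1 for Mnx1. For Gata6, AW011738 (0.81) and Tnfrsf19 (0.77) came after Kcng1. Akr1cl showed the profile of Nkx6-2 in its levels, with 75.8 ± 29.8 normalised counts in wt, 279 ± 24.95 in control and 10.49 ± 3.45 in JTE (SD, n = 3). Srcap showed that of Onecut1, with 734 ± 37.3 in control, 799 ± 45.9 in JTE and 198 ± 43.8 in JTE + CTGF.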

How the data were processed

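Poly(A) RNA of 15 pools was sequenced single-end with a strand-specific kit. The authors aligned the reads to mm10 with GSNAP and Ensembl splice sites and deposited the raw count of uniquely aligned reads per Ensembl gene, made with featureCounts 1.4.6. Whether the counting used the strand is not given in the sources used here, so overlapping genes can share reads. Reads with more than 1 best position were not kept. Of the 50-base words of the member transcripts, 10.7% in Nkx6-2, 52.3% in Onecut1 (shared with Gm20649 at the same locus), 1.00% in Prox1 and 0.682% in Gata6 also occur in another gene, and none in the other members. Symbols and biotypes came from GENCODE M21 and were found for 97.9% of IDs.

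In R 4.3.3, edgeR 4.0.16 tested the counts by its quasi-likelihood method (TMM factors, filterByExpr, 15 libraries in 1 fit, no covariate), with Benjamini-Hochberg adjustment over the 16245 genes tested. A call is an adjusted p below 0.05. The study called genes at an adjusted p of at most 0.1 with a mean normalised count above 100 and a fold change under 0.6 or over 1.6, which was run as an alternative. The biological coefficient of variation was 7.3%, and the counting error of Nkx6-2 in JTE was 30.2%. Intervals of the fold change are 95% intervals of the fit. The members and lists were chosen with earlier results of these data known. The split by role is a textbook one, and the motifs and promoters shown were chosen after values were seen. Named genes were the 9 members, the 3 protein-coding genes (mean CPM of at least 1) with the highest Pearson r to each, rows within 5 kb of a member, 4 paralogs or partners (Nkx6-1, Onecut2, Ptf1a, Neurog3), S1pr2, and up to 3 called genes of largest fold change per list and direction, and some genes that this rule names are not reported here. Alternatives were DESeq2 1.42.0, its size factors, no filter, fewer libraries, scaling by 15 epithelial markers and a replicate block. The test was tried on simulated counts. Python 3.11.15 served for tables and plots.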

Additional observations from a re-analysis of the deposited data

Results flagged for a closer look

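A total of 5 members responded differently to the antagonist in explants and to the genotype label in pancreata, by a test of the difference itself. This was 55.6% of the members, beside 42.9% of all genes. The antagonist was given to cultured dorsal buds and the genotypes were compared in uncultured pancreata. The kind of block and the state of the tissue therefore cannot be told apart. The fold change with the antagonist less that between genotypes was −5.68 on the log2 scale for Nkx6-2, −1.19 for Mnx1, −0.89 for Sox9, −0.50 for Pdx1 and 0.71 for Gata4. For Nkx6-2 the control explants were 7.1-fold above wt, at 416 against 58.4 normalised counts. Groups of 3 libraries were too small for a test of single outlying libraries.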

How the results depend on the processing

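The number of members called was the same with DESeq2 and with its size factors in each of the 6 contrasts. When 1 library was left out, it was 1 to 3 between genotypes, 4 in JTE against control, 6 to 7 and 3 to 5 in JTE + CTGF against control and against JTE, 4 to 6 in control against wt and 5 to 6 in the difference of responses. By the criterion of the study it was 1 between genotypes, 2 in JTE, 1 in JTE + CTGF against JTE and 2 in control against wt.

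Scaling by the epithelial list gave 8 called members between genotypes, 8 in JTE against control and 8 in control against wt, with 6, 5 and 5 in JTE + CTGF against control, against JTE and in the difference. With TMM factors 4199 of all 16245 genes were called between genotypes, 8474 in JTE against control and 9389 in control against wt. This scaling called 11129, 9483 and 12564 genes there, and 9070, 2555 and 4639 in the other contrasts, in the order given. It turned the sign between genotypes for Mnx1 (0.42), Gata6 (0.45), Pdx1 (0.30) and Foxa2 (0.13), in JTE for Gata6 (0.28), Prox1 (0.31) and Gata4 (0.16), in JTE + CTGF against control for Gata6 (0.12) and Gata4 (0.054), and in control against wt for Mnx1 (−0.12), Gata6 (−0.49), Gata4 (−0.41), Pdx1 (−0.49) and Foxa2 (−0.39). Of these, Foxa2 between genotypes and Mnx1 in control against wt had been called. The median of all genes moved to 0.45 between genotypes, 0.31 in JTE, 0.19 and −0.09 in JTE + CTGF against control and JTE, −0.58 in control against wt and −0.15 in the difference.

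The other turned signs were of uncalled values. In JTE these were Foxa2 (−0.0107) and Onecut1 (−0.0075) with DESeq2 size factors, Foxa2 (−0.0084) and Onecut1 (−0.0054) with DESeq2, and Prox1 (0.0074) with no filter. Leaving out 1 library gave −0.0885 to 0.0239 for Mnx1, −0.0424 to 0.0188 for Gata6 and −0.0097 to 0.2032 for Onecut1 between genotypes. In JTE it gave −0.059 to 0.0155 for Gata6, −0.0187 to 0.0232 for Prox1, −0.0581 to 0.1304 for Foxa2 and −0.0407 to 0.0714 for Onecut1. In JTE + CTGF against JTE the ranges were −0.1272 to 0.0417 for Gata4 and −0.2057 to 0.528 for Nkx6-2. In the difference of responses they were −0.0513 to 0.0232 for Gata6, −0.0345 to 0.0074 for Prox1 and −0.188 to 0.025 for Onecut1. The cause was not tested.

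With the replicate number as a block, 2, 4, 6, 4, 4 and 5 members were called, as without it, and it changed no number of calls. Libraries of the same number correlated at −0.13 to 0.29 in their deviations, and not every library correlated best with its own number. The highest values were 0.18 and 0.29 for numbers 2 and 3 in JTE against control, where number 1 had −0.06. Such mixed values do not settle whether libraries of the same number were paired. Nkx6-2 rested on 4 to 15 reads in each treated library, which limits the precision of its fold change.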
